A study of Homo sapiens with 12 samples.

Results

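The genes described here handle stored and burnt fat: 44 genes of the lipid droplet, of mitochondrial fatty acid oxidation and of the peroxisome. Every probe whose symbol in the platform annotation is one of these 44 was taken, which gave 58 of the 24526 probes on the array and at least 1 probe for each gene. By compartment the list holds 12 droplet genes, 26 mitochondrial genes and 6 peroxisomal genes. The droplet group also takes in the uptake and binding genes CD36, FABP3, FABP4 and FABP5 and ANGPTL4, which encodes a secreted protein.

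Fatty acids enter a cell through transporters, are carried by binding proteins and are either esterified to triglyceride, which is kept in droplets coated by perilipins, or oxidised. Oxidation of long chains needs the carnitine shuttle into the mitochondrion, then a spiral of dehydrogenation, hydration, a further dehydrogenation and thiolysis, with electrons handed to the respiratory chain by the electron transfer flavoprotein. Peroxisomes shorten very long and branched chains and give off hydrogen peroxide, which catalase removes. Monocytes and macrophages are known for storing lipid in droplets and for high CD36, and many of these genes are known targets of the peroxisome proliferator-activated receptors.

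The cells were U937, a human myeloid leukaemia line with monocytic features. They were exposed for 24 h to MC2494 or to EX527 or were left as controls, with 4 arrays in each of the 3 groups, all from cells grown in RPMI medium. EX527 is known as an inhibitor of the deacetylase SIRT1, and MC2494 is given in the labels by its code name and known as a sirtuin inhibitor. The labels give neither the doses, nor what the control cells received, nor whether replicate arrays are from separately grown cells, and p-values therefore measure the spread between these arrays, which may be technical. RNA was converted to labelled cRNA from 3000 ng of total RNA and hybridised to Illumina BeadChips, and all signals below are normalized values on the log2 scale unless stated otherwise.

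The mean raw signal was 662.8 ± 31 in MC2494 arrays, 736.2 ± 32.3 in EX527 arrays and 779.3 ± 14.5 in control arrays (SD, n = 4 each). It was lower in MC2494 than in control and in MC2494 than in EX527 (exact permutation tests, 2-sided, p = 0.0286 for each, the smallest p that 4 against 4 allows), and for EX527 against control the p was 0.0857. Quantile normalization removes such a difference, so each change below is relative to the other genes. Between 12231 and 13030 probes per array were detected above background. The label of the cells was checked with marker genes: 10 of the 11 monocytic and myeloid markers on the array were detected on at least 4 arrays, and MPO was detected on none. Of the adipocyte markers, PLIN1, GPD1 and ADRB3 were detected on 0 of 12 arrays, LEP on all 12, ADIPOQ on 8 and CIDEC on the 4 MC2494 arrays alone. None of the 5 fibroblast markers was detected on 4 or more arrays. The lymphocyte markers CD3D and CD3E were detected on none, MS4A1 on 6 and NKG7 and CD79A on all 12 arrays, and of the 6 epithelial and hepatocyte markers EPCAM passed the same limit, with 7 arrays. Of the 10 myeloid markers 6 rose and 3 fell with MC2494, and 2 rose and 8 fell with EX527. Among all genes detected in every group, 36.6% rose and 35.2% fell with MC2494, and 25.6% rose and 30.9% fell with EX527. LYZ fell by 1.83 in MC2494 and fell by 0.57 in EX527, CSF1R rose by 0.17 in MC2494 and fell by 1.02 in EX527, and the B-cell marker CD79A fell by 1.70 in MC2494 and fell by 1.59 in EX527. The summed linear signal of the 10 myeloid markers was 20724 to 22396 in MC2494 arrays, 18141 to 19194 in EX527 arrays and 26383 to 27674 in control arrays. Most of this sum is ELANE, the brightest of them, so it does not describe the others. ELANE had a mean of 14.03 in MC2494, 13.92 in EX527 and 14.47 in control arrays. The summed linear signal of the 3 detected lymphocyte markers was 7821 to 8221 in MC2494 arrays, 8841 to 9576 in EX527 arrays and 8627 to 8962 in control arrays. Most of that sum is NKG7, with means of 12.90, 13.12 and 12.96 in the same order. The part of the markers in the results below was not tested.

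Of the 44 genes, 38 had a probe detected on at least 4 of the 12 arrays and were tested, each by its brightest such probe. Probes of the other 6, LIPE, FABP5, ACADL, ACOT1, ACOT2 and FABP3, were detected on 0 arrays, except that of FABP3, which was detected on 1 EX527 array. FABP4 passed through the EX527 arrays alone, so it had to differ and stands outside the counts of genes called higher or lower, which leaves 37 genes. A gene is called when its adjusted p from limma, over all 13174 probes tested, is under 0.05. The shares given for comparison are over the 9587 named genes detected in every group.

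In MC2494 against control, 15 of the 37 genes rose, 11 fell and 11 were not called. That is 70.3% called, where 71.8% of all genes were called (36.6% higher and 35.2% lower), so the share is near the background. Their median log2 change was 0.06, against 0.00 over all genes, and in 24 of them the arrays of the groups did not overlap, as in 65.5% of all genes. In EX527 against control, 19 rose, 6 fell and 12 were not called, or 67.6% called where 56.5% of all genes were (25.6% higher and 30.9% lower). Their median log2 change was 0.23, against -0.04 over all genes, and 25 did not overlap, where 52.3% of all genes did not. Between the compounds, 9 were higher in MC2494, 14 were lower and 14 were not called, or 62.2% where 61.4% of all genes were called (32.4% higher and 29% lower). Their median log2 difference was -0.05, against 0.02 over all genes, and 22 did not overlap, where 55.5% of all genes did not. Both comparisons against control use the same 4 control arrays.

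Changes of 2-fold or more were few. They were reached by 4 of the 37 genes in MC2494 against control, PLIN2, CD36, ACADM and ECH1, where 12.3% of all genes reached them. In EX527 against control 2 genes reached them, PLIN2 and ACADVL, where 2.45% of all genes did. Between the compounds it was CD36 and ACADVL, where 6.37% of all genes did. The split into higher and lower depended on the scaling between arrays. With median scaling it was 14 higher and 15 lower in MC2494 against control, and with no scaling 13 and 14. For EX527 against control it was 18 and 7, and 20 and 3. For MC2494 against EX527 it was 6 and 14, and 5 and 15, while the share of calls that were higher among all probes moved to 41.2% and 35.2%, against 52% with quantile normalization.

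**Figure D1:**
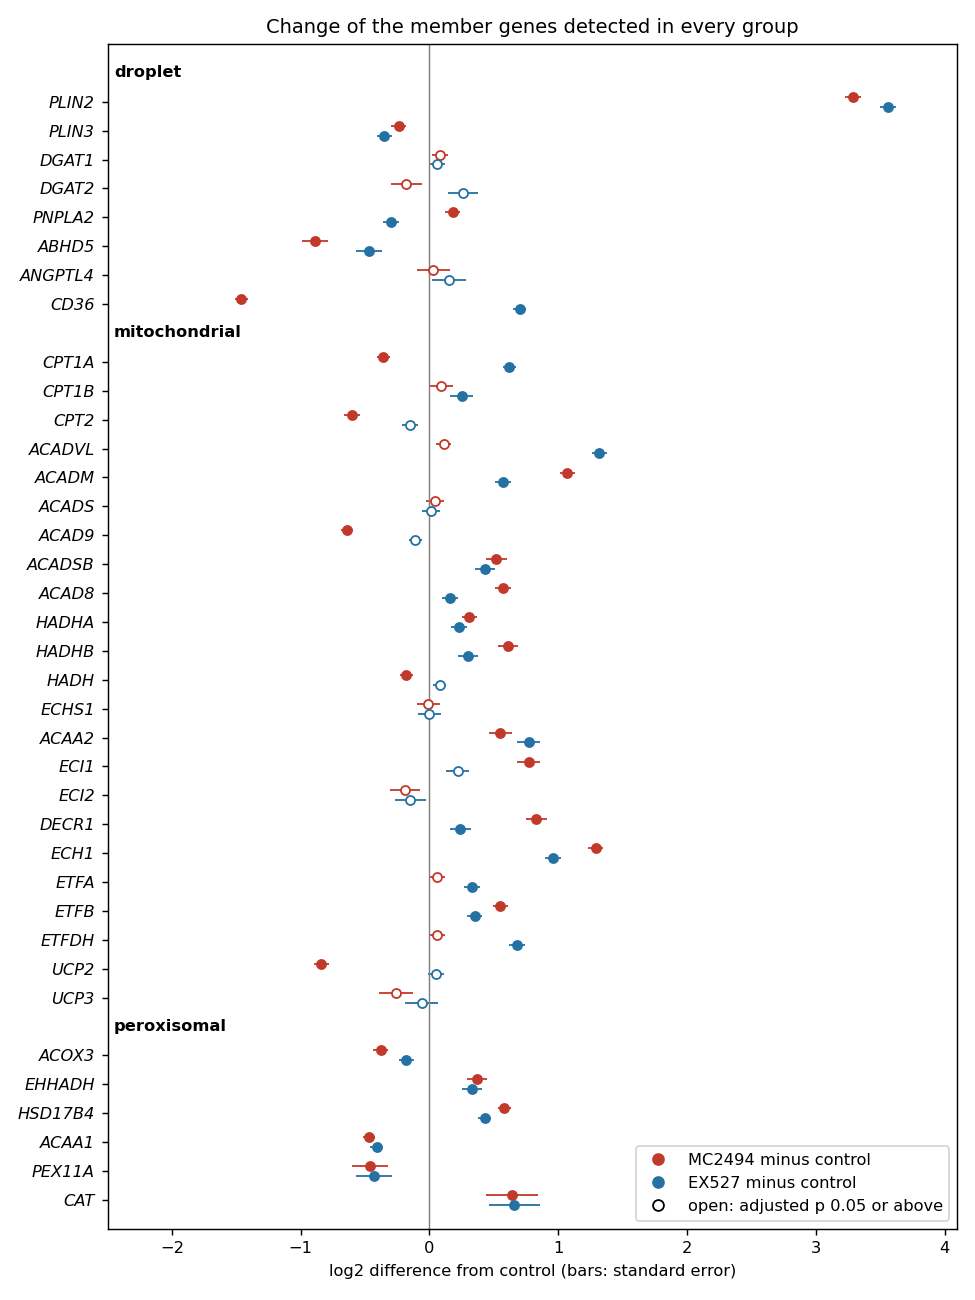
Log2 difference from control of each of the 37 genes detected in every group, by compartment, for MC2494 (red) and EX527 (blue), with bars for the standard error and open points where the adjusted p was 0.05 or above. PLIN2 stands far to the right for both compounds, CD36 lies on opposite sides of 0, and filled blue points of mitochondrial genes all lie to the right of 0, though ACAD9, CPT2 and ECI2 were called lower under some alternatives.

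The droplet coat held the largest change of the list. PLIN2 encodes perilipin 2, which covers the droplets of most cell types and is known to be degraded when droplets are lost. Its signal was 14.04, 14.13, 14.23 and 14.23 in the MC2494 arrays, 14.40, 14.37, 14.48 and 14.47 in the EX527 arrays, and 10.85, 10.88, 10.90 and 10.84 in the control arrays. All treated arrays lay more than 3 log2 units above every control array, and the EX527 arrays all lay above the MC2494 arrays. The gene was 9.79-fold higher in MC2494 (log2 change 3.29 ± 0.06, SE; limma adjusted p = 4.3e-14) and 11.8-fold higher in EX527 (3.56 ± 0.06; adjusted p = 4.4e-14) than in control. The difference between the compounds was small but past the threshold, at -0.27 ± 0.06 for MC2494 minus EX527 (adjusted p = 0.00073). The arrays measure RNA of all cells together, so a change in the number of expressing cells and one in RNA per cell cannot be told apart. PLIN3, a perilipin that moves between the cytosol and small droplets, went the other way, with a log2 change of -0.24 in MC2494 (adjusted p = 0.0037) and -0.35 in EX527 (adjusted p = 0.00039). With median scaling and with no scaling its MC2494 change was -0.55.

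The promoter of PLIN2 is shown because no other member changed as much. It spans 250 bases before to 50 bases after the annotated start, chr9:19127443-19127742 on the minus strand of GRCh38.p14, from RefSeq, and capitals mark matches to the motifs searched.
PLIN2: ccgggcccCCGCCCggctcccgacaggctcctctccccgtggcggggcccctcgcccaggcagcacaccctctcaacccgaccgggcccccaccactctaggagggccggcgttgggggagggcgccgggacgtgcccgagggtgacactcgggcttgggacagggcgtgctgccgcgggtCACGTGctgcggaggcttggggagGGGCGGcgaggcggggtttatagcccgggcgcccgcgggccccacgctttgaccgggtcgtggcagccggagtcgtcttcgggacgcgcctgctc
The window is 76.7% G and C, against a median of 66.3% over the 33 members with an entry in the RefSeq promoter table, where 10 members had more than 1 entry and the first was used. It holds the E-box CACGTG at bases 182 to 187 and the GC box GGGCGG at bases 206 to 211, with the reverse complement of the GC box at bases 9 to 14. The E-box occurs in 7.26% of the 35116 promoters of the table and in 10.8% of those of the genes detected here in every group. It was found in 2 of the 33 members, PLIN2 and ACAD9. The GC box occurs in 45% of all promoters, in 69.3% of the promoters of the genes detected here in every group, and in 24 members (72.7%).

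Motifs of nuclear receptors were rare in these windows, on either strand. AGGTCA, the core that receptors of this class bind, occurs in 13.8% of all promoters and in 9.79% of those of genes detected here in every group, and was found in 2 of 33 members, PNPLA2 and UCP3. The direct repeat of AGGTCA with any 1 base between, which peroxisome proliferator-activated receptors bind, and TCAAGGTCA, the longer core of the oestrogen-related receptors, both contain AGGTCA. They occur in 0.0228% and 0.353% of all promoters and in 0.0374% and 0.125% of those of the detected genes. They were found in 0 of 33 members. TGACGTCA, the cyclic AMP response element, occurs in 1.85% of all promoters and in 3.44% of those of the detected genes, and was found in ACAD9 and ACOX3. CCAAT occurs in 34.6% of all promoters and in 37.6% of those of the detected genes, and was found in 7 members. TTGCATCA, a core of the amino acid response element, occurs in 0.866% and 0.586% and was found in 0. A match is a description of the letters, and the windows leave out enhancers and introns.

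**Figure D2:**
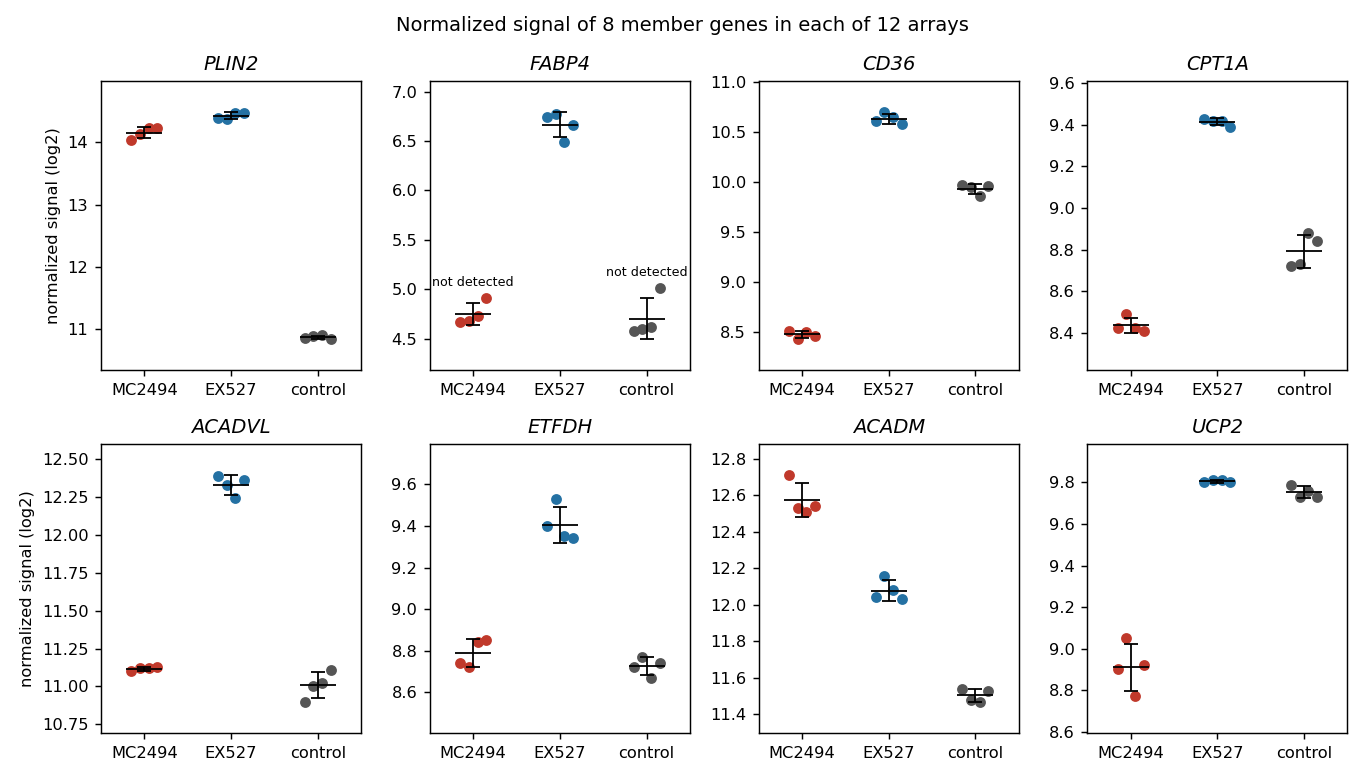
Normalized log2 signal of 8 genes in each array of the MC2494, EX527 and control groups, with a line at each mean and bars for 1 SD (n = 4). The axes do not start at 0. PLIN2 is high with both compounds, FABP4, CPT1A, ACADVL and ETFDH are highest with EX527, ACADM is highest with MC2494, and CD36 and UCP2 are lowest with MC2494.

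DGAT1 and DGAT2, which catalyse the last step of triglyceride synthesis, the acylation of diacylglycerol, moved little against control. DGAT1 had log2 changes of 0.08 in MC2494 and 0.06 in EX527, with 95% intervals of -0.06 to 0.22 and -0.08 to 0.19. DGAT2 had a signal of 5.85, 5.51, 5.35 and 5.91 in MC2494 arrays, 6.20, 6.07, 6.07 and 6.02 in EX527 arrays, and 5.81, 5.77, 5.62 and 6.14 in control arrays. The control arrays overlapped both other groups, while MC2494 lay wholly below EX527 (log2 difference -0.43 ± 0.12; limma adjusted p = 0.008; -0.23 in the authors' log2 values). Against control, DGAT2 was at -0.18 in MC2494 and 0.26 in EX527, neither past the threshold. Without control replicate 4 the EX527 change was 0.36 (adjusted p = 0.023).

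Lipolysis genes changed in unequal ways. ABHD5 activates the main triglyceride lipase. Its signal was 7.22, 7.45, 7.05 and 7.18 in MC2494 arrays, 7.46, 7.65, 7.84 and 7.66 in EX527 arrays, and 8.28, 8.25, 8.01 and 7.94 in control arrays. The 3 groups did not overlap, with MC2494 lowest and control highest. ABHD5 fell by 0.89 on the log2 scale in MC2494 (SE 0.1; adjusted p = 2.6e-06) and by 0.47 in EX527 (adjusted p = 0.0017), and MC2494 was lower than EX527 by 0.43 (difference -0.43; adjusted p = 0.0026). PNPLA2, the lipase that ABHD5 activates, was 0.18 higher in MC2494 (adjusted p = 0.022) and fell by 0.30 in EX527 (adjusted p = 0.00099). The difference between the compounds was 0.48 ± 0.06 (adjusted p = 1.4e-05). The MC2494 rise of PNPLA2 was not called without control replicate 4 (0.16; adjusted p = 0.058), MC2494 replicate 1 (0.16; 0.057) or MC2494 replicate 2 (0.16; 0.054). This rise was not called with no scaling (0.18; 0.051), nor was the EX527 fall (-0.19; 0.05). In replicates 3 and 4 alone the EX527 fall was not called for PNPLA2 (-0.28; 0.065) or ABHD5 (-0.23; 0.095), and in replicates 1 and 2 alone ABHD5 did not pass between the compounds (-0.22; 0.13). LIPE, the hormone-sensitive lipase, was not well above background on any array.

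ANGPTL4 encodes a secreted inhibitor of lipoprotein lipase. Its detected probe read 5.35, 5.59, 5.55 and 5.37 in MC2494 arrays, 5.61, 5.72, 5.46 and 5.57 in EX527 arrays, and 5.02, 5.82, 5.58 and 5.33 in control arrays. The groups overlapped, and the changes were 0.03 ± 0.13 in MC2494 and 0.15 ± 0.13 in EX527, neither called. The control arrays alone spanned 5.02 to 5.82, near the limit of detection, where 3 of the 4 were detected.

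Uptake and binding genes held the largest differences between the compounds. CD36 encodes the fatty acid translocase of the plasma membrane. Its brightest probe read 8.51, 8.43, 8.50 and 8.46 in MC2494 arrays, 10.61, 10.70, 10.65 and 10.58 in EX527 arrays, and 9.97, 9.95, 9.86 and 9.96 in control arrays. The groups did not overlap: control lay between MC2494 below and EX527 above. CD36 was 2.75-fold lower in MC2494 than in control (log2 change -1.46 ± 0.05; adjusted p = 1e-11) and 1.63-fold higher in EX527 than in control (0.70 ± 0.05; adjusted p = 8.8e-08). MC2494 was 4.48-fold lower than EX527 (-2.16 ± 0.05; adjusted p = 1.4e-12), the largest difference between the compounds among the 37 genes. A further CD36 probe gave -1.50, 0.69 and -2.18 for the same comparisons, and a probe of another transcript was detected on 0 arrays.

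The CD36 window at chr7:80601957-80602256 on the plus strand of GRCh38.p14 (RefSeq) is shown because this gene moved in opposite directions. It is the first of 6 starts listed for the gene.
CD36: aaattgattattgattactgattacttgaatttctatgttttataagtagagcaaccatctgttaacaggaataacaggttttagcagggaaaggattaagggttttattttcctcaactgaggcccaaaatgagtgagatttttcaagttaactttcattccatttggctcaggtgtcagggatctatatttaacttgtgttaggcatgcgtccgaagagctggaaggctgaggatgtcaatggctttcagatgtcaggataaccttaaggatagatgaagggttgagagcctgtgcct
It is 38.7% G and C, and none of the 8 motifs searched is in it. Which of the 6 starts U937 cells use was not tested.

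FABP4, a fatty acid binding protein known from adipocytes and macrophages, read 4.67, 4.68, 4.73 and 4.91 in MC2494 arrays, 6.74, 6.77, 6.49 and 6.66 in EX527 arrays, and 4.58, 4.60, 4.62 and 5.01 in control arrays. It was detected on all 4 EX527 arrays and on 0 of the MC2494 and control arrays. At the main settings EX527 was at least 2.8-fold higher than control, and MC2494 was at least 2.9-fold lower than EX527. These bounds depend on the background step and the offset. With an offset of 50 the log2 differences were 1.17 and -1.15, and with no background correction 1.21 and -1.14, all smaller than the bounds. As the gene was tested only because EX527 arrays detected it, these are descriptions, with no test. Of the adipocyte markers checked beside it, LEP differed by 0.06 and ADIPOQ by 0.14 between EX527 and control, neither called. FABP3 and FABP5, the related heart and epidermal proteins, were not detected on 4 or more arrays.

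In the mitochondrion, 10 of 23 genes rose with MC2494, 5 fell and 8 were not called, with a median change of 0.09. With EX527, 14 rose, 0 fell and 9 were not called, with a median of 0.24. At an unadjusted limma p under 0.05, 2 members were lower with EX527, CPT2 and ACAD9. Between the compounds, 7 were higher in MC2494, 9 lower and 7 not called. The background shares for higher and lower are those given above. The 0 holds for the brightest probes at the main settings, but not under every alternative. The dimmer ECI2 probe was called lower in EX527 at the main settings (-0.25; adjusted p = 0.0011). ACAD9 was called lower in EX527 with median scaling (-0.19; adjusted p = 0.015), CPT2 with several alternatives, the authors' log2 values among them (-0.14; 0.041), and ECI2 with the mean of its probes (-0.20; 0.03).

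The carnitine shuttle opposed the compounds at its entry step. CPT1A, the outer-membrane enzyme that sets the rate of long-chain import, read 8.42, 8.49, 8.42 and 8.41 in MC2494 arrays, 9.43, 9.42, 9.42 and 9.39 in EX527 arrays, and 8.72, 8.73, 8.88 and 8.84 in control arrays. All MC2494 arrays lay below and all EX527 arrays above the control arrays. The change was -0.36 ± 0.05 in MC2494 (adjusted p = 2.3e-05) and 0.62 ± 0.05 in EX527 (adjusted p = 3.7e-07), and MC2494 was 1.97-fold lower than EX527 (-0.98; adjusted p = 1.3e-09). A dimmer CPT1A probe gave -0.12 (not called), 0.25 (adjusted p = 0.016) and -0.37 (adjusted p = 0.0011). CPT2, which rebuilds acyl-CoA inside the mitochondrion, fell by 0.60 in MC2494 (adjusted p = 5.1e-07) and was at -0.15 in EX527 (adjusted p = 0.053). CPT1B, the muscle form, was at 0.09 in MC2494 and 0.25 in EX527 (adjusted p = 0.032).

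For 3 of these the call changed when single arrays were left out. The EX527 change of CPT1B was not called without any one of control replicates 1, 2 and 3 or EX527 replicates 1, 3 and 4 (0.20 to 0.26; adjusted p 0.053 to 0.096). Its difference between the compounds, -0.16, was called without MC2494 replicate 3 (-0.25; adjusted p = 0.021). The EX527 change of CPT2 was called without EX527 replicate 3 (-0.17; 0.042), EX527 replicate 4 (-0.17; 0.047) or MC2494 replicate 1 (-0.15; 0.044). With all 12 arrays CPT2 was also called in EX527 under other alternatives, a variance trend among them (-0.15; 0.035). Likewise CPT1B in EX527 was not called with no detection filter (0.25; 0.051).

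The CPT1A window at chr11:68844228-68844527 on the minus strand of GRCh38.p14 and that of ACADVL at chr17:7216875-7217174 on the plus strand (both RefSeq) are shown because these genes were higher with EX527 and stood farthest apart between the compounds among the mitochondrial genes. ACADVL has 2 listed starts, of which the first is shown.
CPT1A: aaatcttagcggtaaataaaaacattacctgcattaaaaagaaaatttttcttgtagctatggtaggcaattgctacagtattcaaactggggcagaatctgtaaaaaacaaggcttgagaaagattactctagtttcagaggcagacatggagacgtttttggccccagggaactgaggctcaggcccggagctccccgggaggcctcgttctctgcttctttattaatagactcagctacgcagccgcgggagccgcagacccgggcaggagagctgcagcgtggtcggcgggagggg
ACADVL: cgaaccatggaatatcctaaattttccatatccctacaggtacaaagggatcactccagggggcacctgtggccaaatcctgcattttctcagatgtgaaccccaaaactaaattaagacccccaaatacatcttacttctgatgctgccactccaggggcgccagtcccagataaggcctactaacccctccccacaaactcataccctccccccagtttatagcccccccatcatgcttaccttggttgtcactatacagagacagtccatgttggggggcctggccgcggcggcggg
They are 50% and 52.7% G and C, below the members' median, and none of the 8 motifs is in either.

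Acyl-CoA dehydrogenases open each round of the spiral and differ in the chain lengths they take. ACADVL, for very long chains, read 11.10, 11.12, 11.12 and 11.13 in MC2494 arrays, 12.39, 12.33, 12.24 and 12.36 in EX527 arrays, and 10.90, 11.00, 11.02 and 11.11 in control arrays. EX527 stood apart from both other groups, which overlapped. ACADVL was 2.5-fold higher in EX527 than in control (1.32 ± 0.06; adjusted p = 1.1e-09) and 2.31-fold lower in MC2494 than in EX527 (-1.21 ± 0.06; adjusted p = 3e-10). In MC2494 against control it was at 0.11 (adjusted p = 0.086), at 0.14 without control replicate 4 (adjusted p = 0.037), and at -0.16 with median scaling (adjusted p = 0.031). Its 2 other probes gave 1.08 and 1.34 for EX527 and 0.05 and -0.21 for MC2494, the last of these called (adjusted p = 0.0052).

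ACADM, for medium chains, had the opposite order of the compounds. It read 12.71, 12.53, 12.51 and 12.54 in MC2494 arrays, 12.04, 12.16, 12.08 and 12.03 in EX527 arrays, and 11.54, 11.48, 11.47 and 11.53 in control arrays. The groups did not overlap. ACADM was 2.09-fold higher in MC2494 (1.07 ± 0.06; adjusted p = 7.3e-10) and 1.48-fold higher in EX527 (0.57 ± 0.06; adjusted p = 1.8e-06) than in control, and MC2494 was 0.50 above EX527 (adjusted p = 3.5e-06). ACAD9, which also serves in the assembly of respiratory complex I, fell by 0.64 in MC2494 (adjusted p = 3.3e-08) and was at -0.11 in EX527 (not called). ACADS, for short chains, was at 0.04 and 0.01, with 95% intervals of -0.11 to 0.19 and -0.14 to 0.16. ACADL, for long chains, was not well above background on any array.

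The branched-chain dehydrogenases, which act on intermediates of amino acid breakdown, both rose. Of all genes 36.6% rose with MC2494 and 25.6% with EX527. ACAD8, the valine pathway enzyme, read 9.01, 9.00, 9.00 and 9.07 in MC2494 arrays, 8.61, 8.54, 8.62 and 8.67 in EX527 arrays, and 8.31, 8.56, 8.41 and 8.52 in control arrays. MC2494 stood above both other groups, which overlapped. ACAD8 was 0.57 ± 0.06 higher in MC2494 than in control (adjusted p = 8.8e-07) and 0.16 ± 0.06 higher in EX527 (adjusted p = 0.034). Without any one of control replicates 1 and 3 and EX527 replicates 1, 3 and 4, the EX527 change was 0.12 to 0.16 and not called (adjusted p 0.06 to 0.11). ACADSB, the isoleucine pathway enzyme, rose by 0.52 in MC2494 (adjusted p = 3.7e-05) and by 0.43 in EX527 (adjusted p = 0.00036), with 0.27 and 0.22 in the authors' log2 values, both called.

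Of the 5 genes of the later steps, 3 rose with MC2494 and 1 fell, and 3 rose with EX527. Over all genes 36.6% rose and 35.2% fell with MC2494, and 25.6% rose with EX527. ACAA2, the thiolase that releases acetyl-CoA, read 9.93, 10.13, 9.90 and 9.88 in MC2494 arrays, 10.23, 10.28, 10.16 and 10.02 in EX527 arrays, and 9.58, 9.51, 9.25 and 9.28 in control arrays. All treated arrays lay above all control arrays. The change was 0.55 ± 0.09 in MC2494 (adjusted p = 6e-05) and 0.77 ± 0.09 in EX527 (adjusted p = 6.8e-06). The difference between the compounds, -0.22, only just passed (adjusted p = 0.048), and the groups overlapped. It was not called without any one of control replicate 2, EX527 replicates 1, 2 and 3 and MC2494 replicates 1, 3 and 4 (-0.22 to -0.18; adjusted p 0.051 to 0.13).

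HADHA and HADHB are the subunits of the trifunctional protein of long-chain oxidation. HADHB rose by 0.61 in MC2494 (adjusted p = 1.1e-05) and by 0.30 in EX527 (adjusted p = 0.0067), and HADHA by 0.31 (adjusted p = 0.00063) and 0.23 (adjusted p = 0.0074). The MC2494 rise of HADHA was not called with median scaling (0.11; adjusted p = 0.19) or no scaling (0.10; 0.24). HADH, the dehydrogenase for shorter hydroxyacyl chains, fell by 0.18 in MC2494 (adjusted p = 0.0092; -0.50 with median scaling and -0.51 with no scaling) and was at 0.08 in EX527. ECHS1, the hydratase for shorter chains, was at -0.01 and 0.00, with 95% intervals of -0.20 to 0.17 and -0.19 to 0.19, and was called lower in MC2494 with median scaling (-0.32; adjusted p = 0.0033) and with no scaling (-0.33; 0.0068).

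Auxiliary enzymes, which reposition the double bonds of unsaturated fatty acids, were higher with MC2494 than with EX527 in 3 of 4 cases. Over all genes 32.4% were. ECH1, a dienoyl-CoA isomerase, read 13.40, 13.55, 13.42 and 13.45 in MC2494 arrays, 13.19, 13.04, 13.16 and 13.11 in EX527 arrays, and 12.15, 12.10, 12.19 and 12.24 in control arrays. The groups did not overlap and lay in the order MC2494, EX527, control. ECH1 was 2.44-fold higher in MC2494 (1.29 ± 0.06; adjusted p = 1e-10) and 1.94-fold higher in EX527 (0.96 ± 0.06; adjusted p = 1.5e-08) than in control. The difference of 0.33 between the compounds (adjusted p = 0.00016) was not called with no scaling (0.14; adjusted p = 0.13).

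DECR1, the dienoyl-CoA reductase, rose by 0.83 in MC2494 (adjusted p = 2.2e-07) and by 0.24 in EX527 (adjusted p = 0.015; 0.20 and 0.053 with median scaling), a difference of 0.59 (adjusted p = 1.2e-05). ECI1, an enoyl-CoA isomerase, rose by 0.77 in MC2494 (adjusted p = 2.2e-06) and was at 0.22 in EX527 (adjusted p = 0.051). Its EX527 change was called under 12 alternatives, at 0.20 to 0.27. Among these were the authors' log2 values (0.20; adjusted p = 0.025), no scaling between arrays (0.25; 0.029) and the fit without control replicate 4 (0.27; 0.021), EX527 replicate 3 (0.26; 0.036) or MC2494 replicate 2 (0.22; 0.048). ECI2, an isomerase found in mitochondria and peroxisomes, was at -0.19 in MC2494 and -0.15 in EX527, neither called, while its dimmer probe was called at -0.29 (adjusted p = 0.00024) and -0.25 (adjusted p = 0.0011). In the MC2494 arrays the SD was 0.26 for the brighter ECI2 probe and 0.067 for the dimmer.

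The 3 electron transfer genes rose with EX527, where 25.6% of all genes did, and ETFA was without a call under 2 other scalings. ETFDH, which passes electrons from the flavoprotein to ubiquinone, read 8.74, 8.72, 8.84 and 8.85 in MC2494 arrays, 9.40, 9.53, 9.35 and 9.34 in EX527 arrays, and 8.72, 8.77, 8.67 and 8.74 in control arrays. EX527 stood above the other groups, which overlapped. ETFDH was 1.6-fold higher in EX527 than in control (0.68 ± 0.06; adjusted p = 4.9e-07), was at 0.06 in MC2494 (not called), and was 0.62 lower in MC2494 than in EX527 (difference -0.62; adjusted p = 5.5e-07). ETFA, the alpha subunit of the flavoprotein, rose by 0.33 in EX527 (adjusted p = 0.00039), but with median scaling by 0.16 (0.1, not called) and with no scaling by 0.20 (0.063). In MC2494 ETFA was at 0.06, and at -0.27 (adjusted p = 0.005) and -0.28 (0.0074) under those scalings.

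ETFB, the beta subunit, rose by 0.55 in MC2494 (adjusted p = 1.5e-06) and by 0.35 in EX527 (adjusted p = 0.00023). A further probe gave 0.55 and 0.30. With median scaling the brighter probe gave 0.25 for MC2494 and 0.23 for EX527, both called. The difference between the compounds was 0.20 (adjusted p = 0.011), and 0.02 with median scaling and -0.02 with no scaling, neither called.

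Uncoupling and thioesterase genes had 1 clear change. UCP2, an inner-membrane carrier known for limiting reactive oxygen species, read 8.90, 9.05, 8.77 and 8.92 in MC2494 arrays, 9.80, 9.81, 9.81 and 9.80 in EX527 arrays, and 9.79, 9.73, 9.76 and 9.73 in control arrays. MC2494 lay wholly below both other groups. UCP2 was 1.79-fold lower in MC2494 than in control (-0.84 ± 0.06; adjusted p = 1.3e-08) and 1.85-fold lower than in EX527 (-0.89; adjusted p = 1.2e-08). In EX527 it was at 0.05, with a 95% interval of -0.07 to 0.18. For UCP3, the muscle form, the brighter probe gave -0.26 for MC2494 (adjusted p = 0.093; -0.37 and 0.021 without MC2494 replicate 1), and a dimmer probe, detected on the 4 MC2494 arrays alone, was at least 1.09-fold higher there than in control, a description with no test. ACOT1 and ACOT2, thioesterases so alike in sequence that a probe may not separate them, were not well above background on any array.

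**Figure D3:**
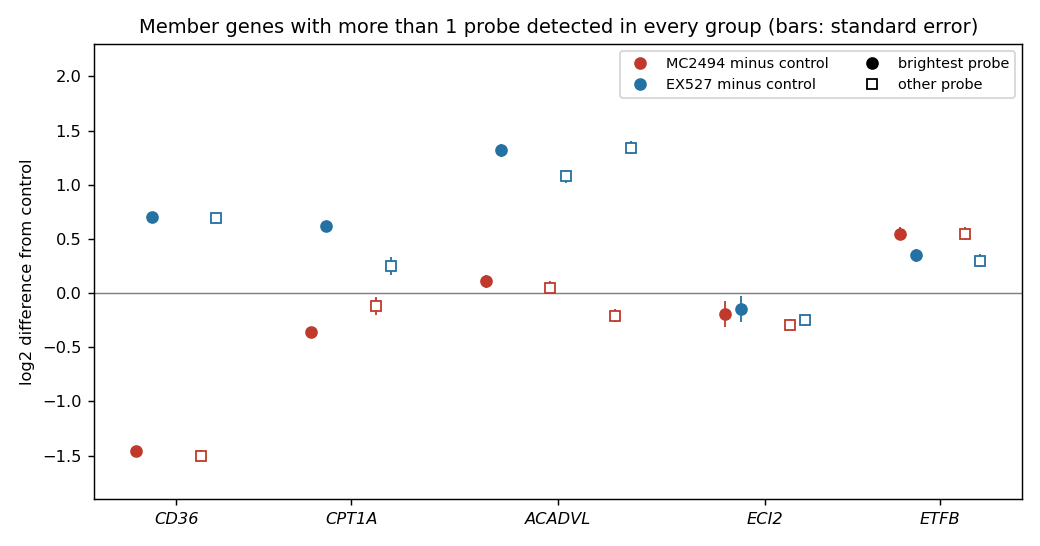
Log2 difference from control for the probes of the 5 genes with more than 1 probe detected in every group, with filled circles for the brightest probe, open squares for the others and bars for the standard error. The probes of CD36, ACADVL and ETFB lie close together for EX527, and those of CPT1A differ in size.

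All 6 peroxisomal genes were called against control with each compound, 3 higher and 3 lower, where 71.8% of all genes were called with MC2494 and 56.5% with EX527. Their medians were -0.01 in MC2494 and 0.07 in EX527. CAT, the catalase gene, read 10.67, 10.51, 9.79 and 9.80 in MC2494 arrays, 10.39, 10.44, 9.96 and 10.05 in EX527 arrays, and 9.93, 9.45, 9.40 and 9.43 in control arrays. Within each treated group replicates 1 and 2 were higher than replicates 3 and 4, and the SD was 0.46 in MC2494 and 0.24 in EX527 arrays. In control arrays replicate 1 alone stood high, and the SD was 0.25. MC2494 overlapped control through control replicate 1. CAT was 0.64 ± 0.20 higher in MC2494 (adjusted p = 0.0099) and 0.66 ± 0.20 higher in EX527 (adjusted p = 0.012). In replicates 1 and 2 alone these changes were 0.90 and 0.73, and in replicates 3 and 4 alone 0.38 and 0.59, all called. The difference between the compounds was -0.02, with a 95% interval of -0.44 to 0.40, which leaves room for a difference in either direction, and in replicates 3 and 4 alone it was -0.21 (adjusted p = 0.046).

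HSD17B4 and EHHADH, the multifunctional enzymes of the middle steps of peroxisomal oxidation, rose. HSD17B4 was 0.58 higher in MC2494 (adjusted p = 1.5e-07; 0.31 with median scaling) and 0.43 higher in EX527 (adjusted p = 9.1e-06), and EHHADH 0.37 (adjusted p = 0.0014) and 0.33 (adjusted p = 0.0044). ACAA1, the peroxisomal thiolase, fell by 0.47 in MC2494 (adjusted p = 1.1e-06) and by 0.41 in EX527 (adjusted p = 1.2e-05). ACOX3, an oxidase of branched chains, fell by 0.38 (adjusted p = 1e-04) and 0.18 (adjusted p = 0.026). PEX11A, which acts in the division of peroxisomes, fell by 0.46 (adjusted p = 0.011) and 0.43 (adjusted p = 0.022), though its treated and control arrays overlapped. With the authors' log2 values the changes of these dim genes were smaller but still called, at 0.21 and 0.18 for EHHADH and -0.25 and -0.23 for PEX11A.

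Between the compounds 2 of the 6 peroxisomal genes were called, where 61.4% of all genes were. These were HSD17B4 at 0.15 (adjusted p = 0.022) and ACOX3 at -0.20 (adjusted p = 0.017). The HSD17B4 difference was at -0.02 with median scaling and -0.06 with no scaling, and was not called without EX527 replicate 2 (0.12; 0.073) or MC2494 replicate 4 (0.14; 0.052), nor was that of ACOX3 without MC2494 replicate 4 (-0.15; 0.057). The EX527 fall of ACOX3 was not called without any one of control replicates 1 and 4 and EX527 replicates 1 and 4 (-0.17 to -0.16; adjusted p 0.059 to 0.073). That of PEX11A was not called without control replicate 1 (-0.31; 0.073), control replicate 2 (-0.40; 0.053) or EX527 replicate 2 (-0.33; 0.074).

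Set directly against each other, the compounds differed most, among the 37 genes, in CD36, ACADVL, CPT1A, UCP2, ETFDH and ACAD9, all lower in MC2494, and in DECR1, ECI1, ACADM and PNPLA2, all higher in MC2494, by 0.48 to 0.59. ACAD9 was at -0.53 (adjusted p = 4.4e-07), and FABP4, which is described without a test, was lower in MC2494 too. With no scaling between arrays the difference was 0.37 for DECR1 and 0.28 for ACADM, both still called. For 14 genes no difference was called. The narrowest 95% intervals among these were those of ACAA1, -0.17 to 0.05, PLIN3, -0.03 to 0.24, and HADHA, -0.06 to 0.21. They hold at the main settings: with no scaling between arrays ACAA1 was called at -0.19 (adjusted p = 0.042). Among the alternatives PLIN3 went as low as -0.07 and HADHA as low as -0.12, also outside these intervals. The labels give no doses, so these are differences between the treatments as applied.

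**Figure D4:**
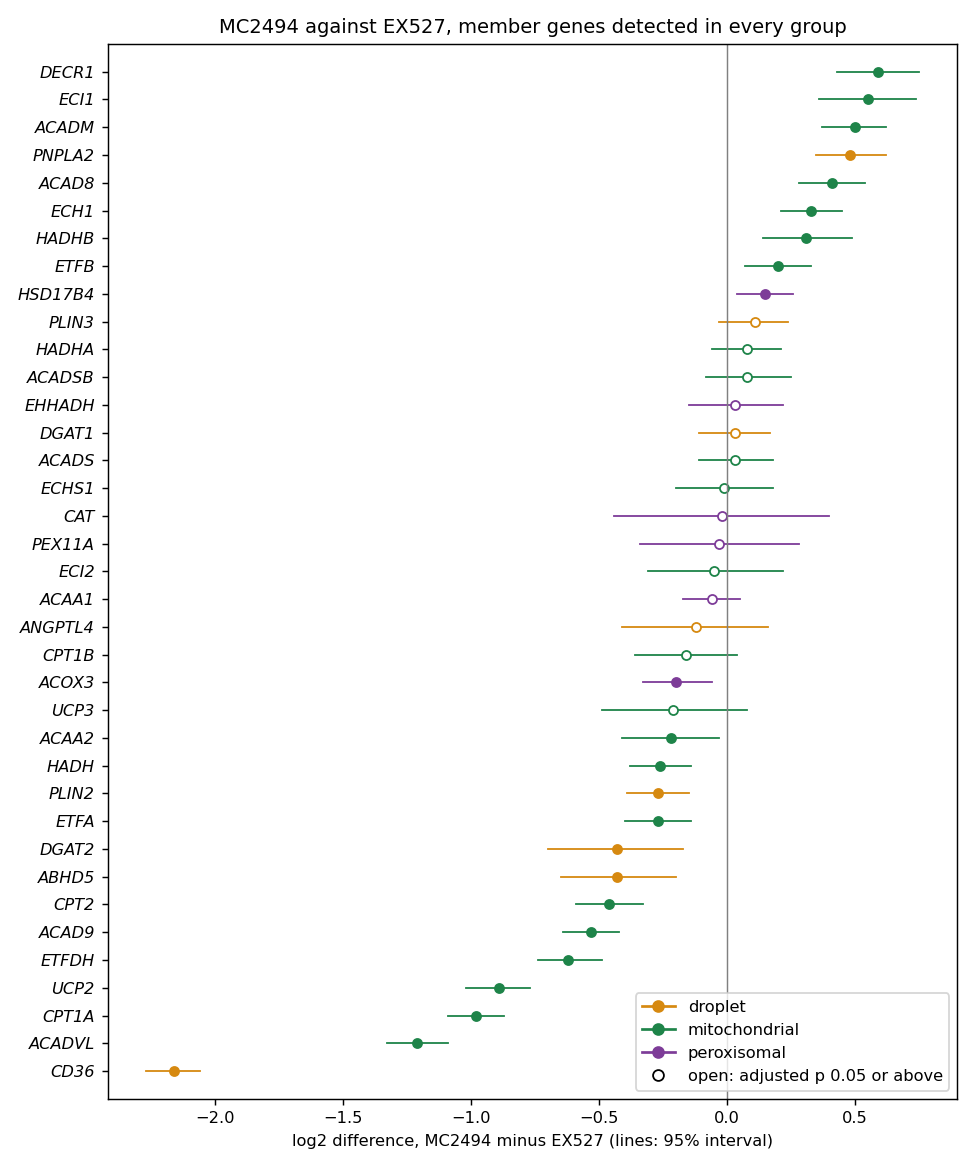
Log2 difference of MC2494 minus EX527 for the 37 genes detected in every group, sorted, with lines for the 95% interval, colours for the compartment and open points where the adjusted p was 0.05 or above. CD36 at -2.16 lies at the bottom and DECR1 at 0.59 at the top, and both colours of droplet and mitochondrial genes occur on each side of 0.

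Other genes of the same pathways were taken from 4 further lists. Among 19 measured droplet and lipid-handling genes outside the 44, 10 rose with MC2494, 7 fell and 2 were not called (89.5% called, where 71.8% of all genes were), and with EX527 3 rose, 6 fell and 10 were not called (47.4%, where 56.5% of all genes were). These shares and those below describe the lists and were not tested against all genes. RAB18, a GTPase of the droplet surface, rose by 1.23 and 0.79 (adjusted p = 2.8e-07 and 6.1e-05). LPIN1, a phosphatidate phosphatase, rose by 0.95 in MC2494 (adjusted p = 2.2e-09). SLC27A2, a fatty acid transporter, fell by 1.09 in MC2494 (adjusted p = 2.9e-08). HILPDA, an inhibitor of triglyceride lipase on the droplet, fell by 0.82 in MC2494 and by 0.40 in EX527 (adjusted p = 1.2e-05 and 0.008). MGLL, the monoglyceride lipase, was 1.00 higher in MC2494 than in EX527 (adjusted p = 1.1e-08). FITM1, FITM2 and CIDEC stand outside the 19, since each was detected on 0 arrays of at least 1 group. FITM2 was detected on all EX527 and control arrays and on 0 MC2494 arrays, and MC2494 was at least 2.45-fold lower than control. CIDEC, detected on the MC2494 arrays alone, was at least 1.19-fold higher there than in control. These are descriptions, with no test.

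Of 16 further mitochondrial genes, 6 rose with MC2494, 7 fell and 3 were not called (81.2% called, against 71.8% of all genes), and with EX527 5 rose, 4 fell and 7 were not called (56.2%, against 56.5%). SLC25A20, the carrier that exchanges acylcarnitine across the inner membrane, rose by 1.36 in MC2494 (adjusted p = 7.2e-08) and by 0.87 in EX527 (adjusted p = 2e-05). ACACB, which makes the malonyl-CoA that inhibits the carnitine shuttle, rose by 1.51 and 0.89 (adjusted p = 3.9e-10 and 4.5e-07). IVD, of leucine breakdown, fell by 1.42 and 0.52 (adjusted p = 8.2e-09 and 0.00037). OXCT1, which lets cells use ketone bodies, fell by 1.06 in MC2494 (adjusted p = 2.9e-07) and was at 0.10 in EX527.

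Among 14 further peroxisomal genes the counts were 4 higher, 5 lower and 5 not called with MC2494 (64.3% called, against 71.8% of all genes), and 4, 6 and 4 with EX527 (71.4%, against 56.5%). PECR, a peroxisomal enoyl-CoA reductase, rose by 2.07 in MC2494 (adjusted p = 2.1e-12) and by 0.55 in EX527 (adjusted p = 3.6e-06). PHYH, of branched-chain alpha-oxidation, rose by 1.08 and 0.54 (adjusted p = 4.4e-09 and 1.5e-05). ACOX2, the oxidase of bile acid intermediates, fell by 1.22 and 1.24 (adjusted p = 2.7e-10 and 2.9e-09).

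Regulators of these pathways were higher with MC2494 in 7 of 9 cases, lower in 1 and not called in 1, and with EX527 2 rose, 3 fell and 4 were not called. Over all genes 36.6% were higher and 35.2% lower with MC2494, and 25.6% and 30.9% with EX527. PPARGC1A, a coactivator of oxidative genes, ranged from 9.87 to 10.04 in MC2494 arrays, 8.10 to 8.23 in EX527 arrays and 6.81 to 6.96 in control arrays. It rose by 3.05 ± 0.06 in MC2494 (adjusted p = 9.2e-14) and by 1.28 ± 0.06 in EX527 (adjusted p = 1.7e-09). PPARG, a receptor for fatty acids known to raise CD36, FABP4 and PLIN2, rose by 2.13 and 0.93 (adjusted p = 3.5e-13 and 4.1e-09), and its other probes by 1.35 and 1.92 in MC2494 and by 0.34 and 0.79 in EX527. Its signal was higher with MC2494 than with EX527 by 1.21 (adjusted p = 5.8e-11). PPARGC1B, the related coactivator, fell by 0.64 and 0.33 (adjusted p = 7.5e-07 and 0.00083). CREB3L3, a factor of fasting metabolism, stands outside these 9, since it was detected on all treated arrays and on 0 control arrays. Compared with control it was higher by at least 2.32-fold with MC2494 and by at least 4.68-fold with EX527.

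**Figure D5:**
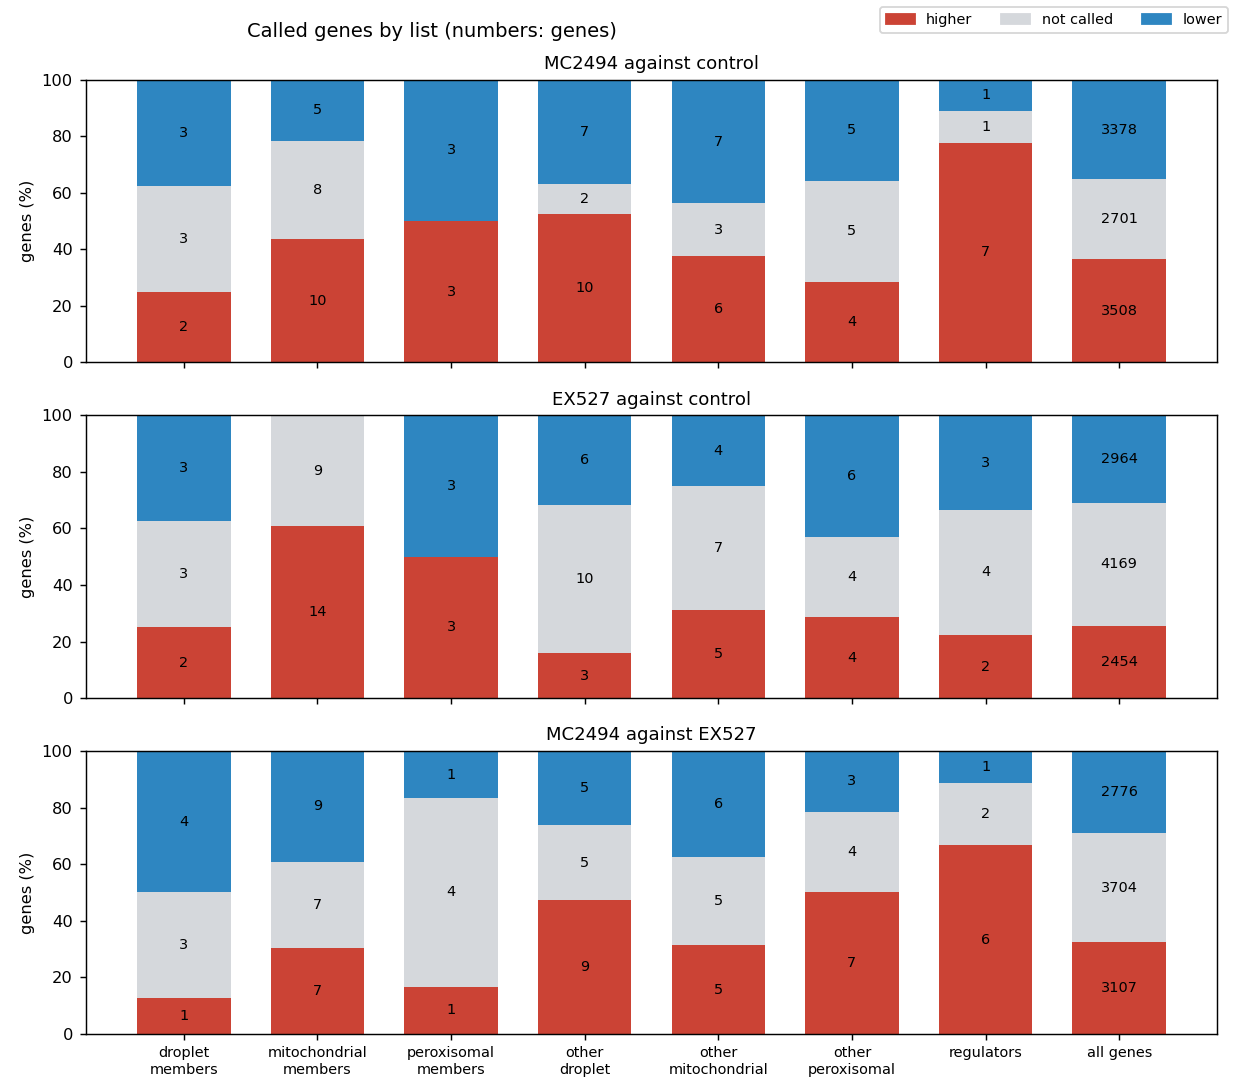
Share of genes called higher (red), not called (grey) and called lower (blue) in each list and over all 9587 genes detected in every group, for each comparison, with the number of genes in each block. Mitochondrial members had 14 higher and 0 lower with EX527 (ACAD9, CPT2 and ECI2 being called lower under some alternatives), and regulators had 7 higher and 1 lower with MC2494.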

How the data were processed

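For every probe and array the deposited signal table gives an average bead intensity, which is linear and, as its values show, neither scaled nor freed of background. It also gives detection p-values, per the file headers. In a second deposited table are log2 values that the authors had quantile normalized, as their common distribution shows. A mention of limma stands in the submitters' processing notes. Which scanner software and genome build were used is not given in the sources consulted.

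Intensities were passed to neqc (limma 3.58.1, R 4.3.3), with the background taken from the detection p-values, an offset of 16, quantile normalization and log2. Changes are thus relative to the remaining genes. The annotation gave 1 symbol to 21834 of the 24526 probes, several to 0 and none to 2692. A probe was kept if its detection p was under 0.05 on at least 4 of 12 arrays, which left 13174 probes of 9956 genes, and the brightest kept probe stood for a gene. With lmFit and eBayes, group means were estimated from all 12 arrays together, and p-values were adjusted over the 13174 probes by the Benjamini-Hochberg method. A fold is written "at least" where no array of a group detected the gene. It sets the brighter group's mean against a floor, for each array the lowest signal of any detected probe or the probe's own, whichever was higher. The number of arrays limits the precision, and the median SD within groups was 0.11 (log2).

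The members, the other lists and the tests were chosen with earlier results of these data known. Values in every array are given for members called at 2-fold or more in a comparison and for the member with the largest change in each role. Of each other list up to 4 called genes per comparison with the largest change qualified, and part of these are printed. Promoters came from the RefSeq table of GRCh38.p14, and figures were drawn with matplotlib 3.10.9. The fit was tested on simulated data. The alternatives concerned the background step, the offset, scaling, the filter, the choice of probe, the variance model, weights for arrays, the arrays fitted and a replicate block. The authors' log2 values were also used, and each array was left out in turn. Deviations of same-numbered arrays from their group means correlated at -0.04 to 0.18 (12 pairs, 4 of them over 0.1), so the replicate numbers were not taken to pair samples. No 2 arrays of a group were duplicates: the lowest median difference between replicates was 0.0885 on the log2 scale.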

Additional observations from a re-analysis of the deposited data

Results flagged for a closer look

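Of 114 groups of 4 values of the tested genes, 6 held an array far from the other 3 by Dixon's criterion, where chance gives about 1 in 20. HADH was at 12.00 in control replicate 2, against 12.11 to 12.13 in the other control arrays. CAT was at 9.93 in control replicate 1, against 9.40 to 9.45. CPT1A was at 8.49 in MC2494 replicate 2, against 8.41 to 8.42 in the other MC2494 arrays. ACAD8 was at 9.07 in MC2494 replicate 4, against 9.00 to 9.01, and ACAA1 at 8.59 in MC2494 replicate 3, against 8.48 to 8.50. FABP4, not detected in control arrays, was at 5.01 in control replicate 4, against 4.58 to 4.62.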

How the results depend on the processing

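Leaving out each array in turn gave 14 to 15 genes higher and 11 to 12 lower in MC2494 against control, 17 to 21 and 4 to 7 in EX527 against control, and 8 to 9 and 12 to 14 in MC2494 against EX527. Of 1368 changes of the 38 tested genes recomputed this way, FABP4 among them, 1327 kept their direction and side of the threshold. Of the rest, 31 lost the call, 10 gained it and 0 turned. Under the other alternatives 1617 of 1701 kept both, 45 lost the call, 33 gained it and 6 turned. Both tallies include FABP4, which passed the filter through the EX527 arrays alone, so its calls involving EX527 say nothing of stability. The genes lower in EX527 than in control numbered 3 with no scaling between arrays and 2 with replicates 3 and 4 alone, against 6, and those higher in MC2494 than in EX527 numbered 5 with no scaling, against 9. The cause was not tested, except that fewer arrays were fitted with replicates 3 and 4 alone. The changes that turned were ETFA in MC2494 against control (-0.27 with median scaling, -0.28 with no scaling), ACADVL in the same comparison (-0.16 with median scaling), ETFB in MC2494 against EX527 (-0.02 with no scaling) and HSD17B4 there (-0.02 and -0.06). Splitting the arrays was chosen after seeing the data: deviations of arrays sharing replicates 1 and 2, or 3 and 4, correlated at -0.04 to 0.25 (9 of 24 pairs over 0.1) and others at -0.21 to 0.09 (0 of 24). With the replicate block, 15 genes were higher and 11 lower in MC2494 against control, as without it, and the block changed no member's call except DGAT2 in EX527 against control (0.26; adjusted p = 0.048), which is a change under numbers that do not pair the samples. Probes near background limit ANGPTL4, ACADSB, DGAT2, UCP3 and PEX11A. At a detection p under 0.01, ANGPTL4, ACADSB and PEX11A had no value.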
